A study of Mus musculus with 4 samples.

Results

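The genes described here are 9 integrin subunits of epithelial cells, taken by symbol from the 36144 gene names of the count table. They comprise 4 alpha chains (*Itga2*, *Itga3*, *Itga6* and *Itgav*) and 5 beta chains (*Itgb1*, *Itgb4*, *Itgb5*, *Itgb6* and *Itgb8*). The study asked how butyrate, a short-chain fatty acid made by bacterial fermentation of dietary fibre, alters gene expression in mouse colonic organoids, which are epithelial structures grown from colonic crypts. Poly-A RNA was sequenced from 4 libraries: untreated and butyrate-treated organoids at 48 h, and untreated and butyrate-treated organoids at 72 h, with 1 library per condition. Treated organoids received 2 mM sodium butyrate in the same crypt medium as the untreated organoids.

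The labels give every library as wild type (WT), and the organoids as started from a male mouse aged 24 weeks, whereas the study's methods describe organoids from Hes1-GFP reporter mice. All 4 conditions shared a Matrigel dome, a basement membrane extract that itself supplies laminin and collagen IV to the cells, and a medium with EGF, Noggin, R-spondin, the GSK3 inhibitor CHIR99021 and the ROCK inhibitor Y-27632. Organoids were freed from the dome with TrypLE, a protease reagent, before lysis. The libraries held 20790225 to 24207840 counts, of which 14.1% to 18.4% came from genes of the mitochondrial genome. The 10 epithelial markers examined, among them *Epcam*, *Cdh1* and *Vil1*, were detected in every library, with summed normalised counts of 166400.0 to 190003.4. Because each condition had a single library, no difference below has a replicate check and no p-value is given. Intervals are exact 95% Clopper-Pearson intervals on pairs of counts, and they cover counting error only.

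Integrins are receptors made of an alpha and a beta chain that span the plasma membrane and tie the matrix outside the cell to the cytoskeleton within it. In gut epithelium, alpha2beta1 binds collagen, alpha3beta1 and alpha6beta1 bind laminin, and alpha6beta4 anchors cells to laminin through hemidesmosomes. The alpha v chain pairs with beta5, a receptor for vitronectin, and with beta6 and beta8, which bind the latent form of TGF-beta and can release the active cytokine. An RNA level does not measure how much of a heterodimer reaches the cell surface.

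Levels of different genes were compared as TPM, which divides each count by the length of the gene's exons and scales every library to the same sum. *Itgb1*, the common beta chain, had the highest TPM of the 9 genes in every library, at 233 in untreated and 186 in butyrate-treated organoids at 48 h, and 223 and 226 at 72 h. It made up 72.6% to 74.5% of the summed TPM of the 5 beta chains. *Itgb4*, the hemidesmosome chain, came next among the beta chains, with a TPM of 66.3 and 45.2 at 48 h and 68.9 and 67.6 at 72 h in untreated and treated organoids. The remaining 3 beta chains, all of which pair with alpha v, were lower in every library, nearest in butyrate at 48 h, where *Itgb4* was 2.23 times *Itgb5* per kilobase. The beta pool was thus mainly *Itgb1* and *Itgb4*.

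Among the alpha chains, *Itga6* had a TPM of 96.8, 77.6, 80.2 and 88.9 in untreated 48 h, butyrate 48 h, untreated 72 h and butyrate 72 h organoids, the order used for every series of 4 values below. *Itga2* had a TPM of 80.9, 54, 88.9 and 63.1, and *Itga3* one of 53.8, 52.6, 59.6 and 52.1. *Itgav*, the partner of the low beta chains, had a TPM of only 8.98, 10.8, 10.4 and 12.7. The order of *Itga6* and *Itga2* was not the same in all libraries, since *Itga2* was the higher in untreated organoids at 72 h. It also rested on the length used: per base of the longest transcript, *Itga6* was the higher in every library. In untreated organoids at 72 h *Itga6* then had a TPM of 143 and *Itga2* one of 76.1.

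**Figure D1:**
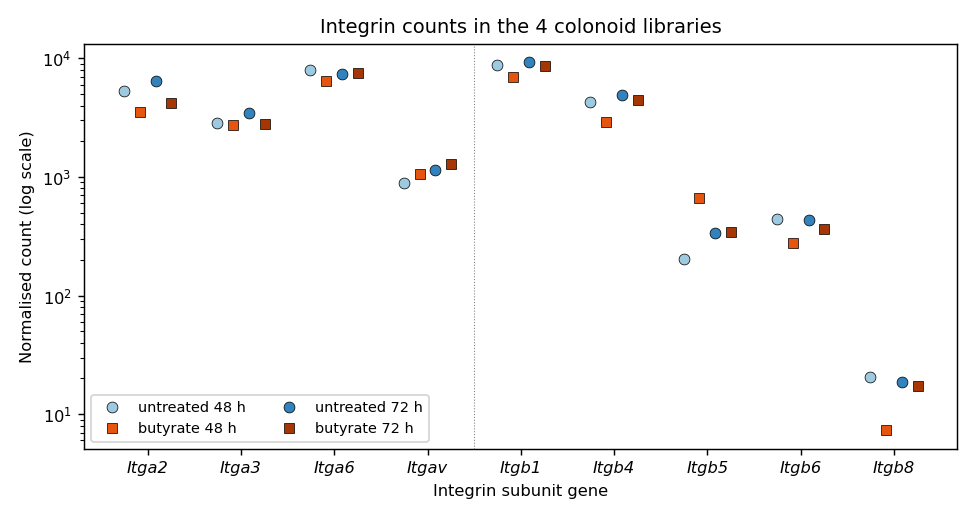
Normalised counts of the 9 integrin genes in the 4 libraries, on a log axis, with 1 point per library. *Itgb5* stands out for a single high point, butyrate at 48 h with 661.4 normalised counts, while *Itgb1*, *Itga6*, *Itga3* and *Itgav* spread by less than 1.5-fold and *Itgb8* lies near 20 or below.

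The plot of normalised counts shows how differently the genes varied. From the lowest to the highest library, *Itga3* and *Itga6* each spread by 1.25-fold, *Itgb1* by 1.32-fold and *Itgav* by 1.44-fold. *Itgb6* spread by 1.59-fold, *Itgb4* by 1.68-fold and *Itga2* by 1.82-fold. *Itgb5* spread by 3.25-fold, the widest of the 8 genes with enough counts to compare. *Itgb8* had 20, 8, 19 and 16 counts and is given with values only, since its mean of 15.9 normalised counts lay below the minimum of 50 that was set for calling a gene. Its 8 to 20 counts lay above the 3 counts that a count of 0 would allow, so it was detected in all 4 libraries, at 0.0714 to 0.201 TPM.

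The neighbours in the order of TPM were mostly further apart than counting error, with union exon length. In untreated organoids at 48 h *Itgb6* and *Itgb5* could not be told apart, with a ratio of 1.09 (0.917 to 1.29). In butyrate-treated organoids at 48 h the same held for *Itga2* and *Itga3*, with a ratio of 1.03 (0.979 to 1.08), and in untreated organoids at 72 h for *Itgav* and *Itgb5*, with a ratio of 1.12 (0.988 to 1.26). No such pair occurred in butyrate-treated organoids at 72 h. These near ties held for union exon length and changed with the length of the longest transcript. With that length *Itgb5* over *Itgb6* was 0.673 in untreated organoids at 48 h, and *Itgav* over *Itgb5* was 1.57 in untreated organoids at 72 h. *Itga2* over *Itga3* became 0.877 in butyrate at 48 h, which turns their order, and 1.03 in butyrate at 72 h.

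The first comparison asked how the integrins differed between butyrate-treated and untreated organoids at each time. A gene was called higher or lower when its normalised counts were at least 1.5-fold apart. At 48 h, *Itgb5* was called higher, and *Itga2* and *Itgb6* were called lower, out of the 8 genes whose normalised counts averaged 50 or more. Of all 11650 genes with such an average, 8.94% were called higher and 6.43% lower at 48 h. At 72 h only *Itga2*, among the 8, was called, and it was lower, against 5.88% of all genes called higher and 5.13% called lower. With 8 genes, these counts are a description of the list, and nothing particular to integrins is read from them.

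The 8 genes had a median log2 fold change, butyrate over untreated, of -0.32 at 48 h and -0.12 at 72 h, beside -0.03 and 0.00 over all tested genes. Of the 9 genes, 6 had lower normalised counts in butyrate at both times (*Itga2*, *Itga3*, *Itgb1*, *Itgb4*, *Itgb6* and *Itgb8*), beside 32.7% of all tested genes. The interval of *Itga3* at 48 h and that of *Itgb8*, which was not tested, at 72 h held 0. When libraries were instead scaled to the summed counts of the epithelial markers, 3 of the 9 were lower at both times, beside 19% of all tested genes, because *Itgb1*, *Itgb4* and *Itgb8* were then higher at 72 h. The median of the 8 genes was then -0.41 at 48 h and 0.07 at 72 h, beside -0.12 and 0.19 over all tested genes. These markers were not level themselves. With DESeq2 size factors their sum in butyrate over untreated gave ratios of 1.06 and 0.876, and 1 of the 10 was called lower at 72 h. *Itgav* and *Itgb5* were higher at both times under either scaling, with *Itgb5* close to equal at 72 h. Fewer cells of a type and less RNA per cell cannot be told apart in such bulk libraries.

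**Figure D2:**
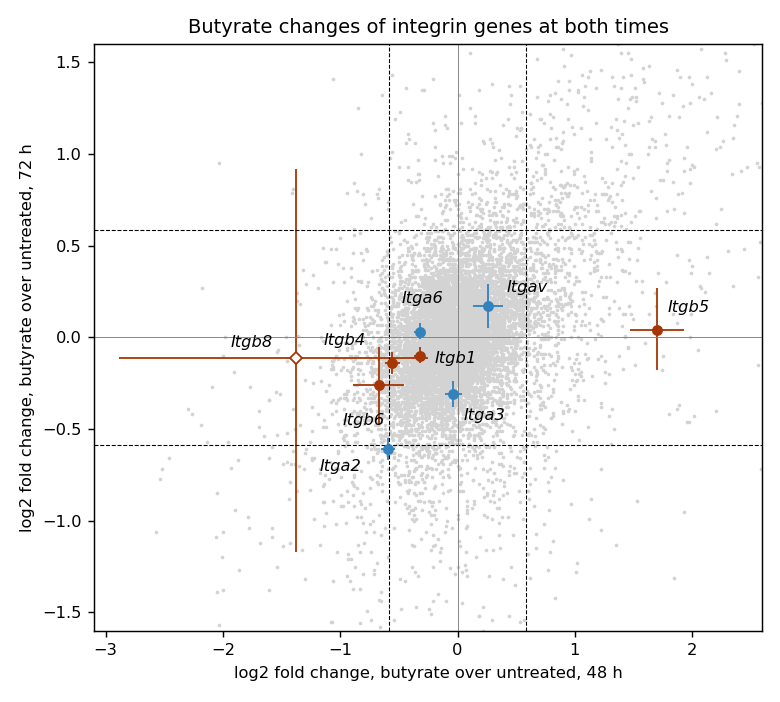
Log2 fold change of butyrate over untreated at 48 h (horizontal axis) and at 72 h (vertical axis) for the 9 integrin genes, with 95% intervals for counting error, over all tested genes in grey. Dashed lines mark 1.5-fold, the open diamond is *Itgb8*, which had too few counts to be called, and grey genes beyond the axes are not drawn. *Itgb5* lies far to the right at 1.70 yet at 0.04 on the vertical axis, and *Itga2* is the single gene of the list past the lower line on both axes.

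*Itga2*, the collagen-binding alpha chain (GRCm38 chr13:114833081-114932100, minus strand), was lower in butyrate at both times. Untreated organoids gave 5205 counts at 48 h and 6521 at 72 h, while treated organoids gave 3905 and 3906. After normalisation the untreated values were 5322.2 and 6438.7 and the treated ones 3542.9 and 4218.6, so both treated libraries lay below both untreated ones. Butyrate over untreated, the log2 ratio came to -0.59 (-0.65 to -0.53) in the 48 h pair and -0.61 (-0.67 to -0.55) in the 72 h pair. The values at the 2 times differed by -0.02 (-0.11 to 0.06), but with epithelial scaling they were -0.68 and -0.42 and so less alike. Both lay close to the 1.5-fold line, and the call was lost at both times when libraries were scaled to their total counts, and at 72 h when they were scaled to the epithelial markers.

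*Itga3*, the alpha chain of the laminin receptor alpha3beta1 (chr11:95044474-95076801, minus strand), had 2834.4, 2763.6, 3456.8 and 2790.8 normalised counts. Its highest library was untreated 72 h, and the other 3 lay close together. The log2 difference, treated minus untreated, was -0.04 (-0.11 to 0.04) in the earlier pair and -0.31 (-0.38 to -0.24) in the later pair. The ratio of *Itga2* to *Itga3* per kilobase, which compares the collagen-binding with a laminin-binding chain inside each library, was 1.5 (1.44 to 1.57) and 1.03 (0.979 to 1.08) at 48 h and 1.49 (1.43 to 1.55) and 1.21 (1.15 to 1.27) at 72 h, in untreated and treated organoids. Both treated libraries thus had a lower ratio than both untreated libraries, and this ratio does not depend on how libraries are scaled.

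*Itga6*, the alpha chain shared by alpha6beta1 and alpha6beta4 (chr2:71745616-71858416, plus strand), had 8054.4, 6441.7, 7350.1 and 7528.9 normalised counts. Butyrate at 48 h was the lowest library and untreated 48 h the highest, with both 72 h libraries between them. In log2 units the butyrate contrast amounted to -0.32 (-0.37 to -0.28) for the 48 h libraries, compared with 0.03 (-0.01 to 0.08) for those of 72 h, neither past 1.5-fold. The gene-level counts do not separate the splice forms of *Itga6* that differ in their cytoplasmic tail.

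*Itgb1* (chr8:128685654-128733200, plus strand) had 8748.7, 6994.2, 9254.8 and 8664.0 normalised counts, again with butyrate 48 h the lowest. In butyrate at 48 h its log2 ratio to untreated was -0.32 (-0.37 to -0.28), the same as that of *Itga6* to 2 decimals, and -0.10 (-0.14 to -0.05) at 72 h. *Itgb4* (chr11:115974709-116008412, plus strand) had 4287.5, 2913.3, 4905.3 and 4445.4 normalised counts. Its log2 fold change of -0.56 (-0.62 to -0.49) at 48 h was just short of the 1.5-fold line, and it was -0.14 (-0.20 to -0.08) at 72 h. *Itgb4* was therefore the member just outside the call at 48 h, as *Itga2*, at -0.59, was the one just inside it. With epithelial scaling *Itgb4* was called lower as well, at -0.65.

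For *Itga6*, *Itgb1* and *Itgb4* the log2 fold change in butyrate was higher at 72 h than at 48 h by more than counting error, by 0.36 (0.29 to 0.42), 0.23 (0.17 to 0.29) and 0.42 (0.33 to 0.50). For *Itga3* the difference was -0.27 (-0.38 to -0.17). These differences between the times rest on the scaling: with the epithelial markers *Itga3* gave -0.13 and -0.12, *Itga6* -0.41 and 0.23, *Itgb1* -0.41 and 0.10, and *Itgb4* -0.65 and 0.05, so that *Itga3* was level and the gaps of the other 3 were wider. Inside each library, the ratio of *Itga6* to *Itgb4* per kilobase was 1.46 (1.41 to 1.52) and 1.72 (1.65 to 1.79) at 48 h and 1.16 (1.12 to 1.21) and 1.32 (1.27 to 1.37) at 72 h, higher in the treated library at each time. The ratio of *Itga6* to *Itgb1* was 0.416 in both 48 h libraries, 0.359 in untreated and 0.393 in treated organoids at 72 h. Per base of the longest transcript, *Itga6* over *Itgb4* was 2.71 and 3.18 at 48 h and 2.16 and 2.44 at 72 h, and *Itga6* over *Itgb1* was 0.815 in both 48 h libraries, so the size of these ratios rests on the length used and the difference between libraries does not. The ratio of *Itga6* to *Itgb4* was thus higher in the treated library of each pair. The 2 untreated libraries, at 1.46 and 1.16 per kilobase, lay further apart than the libraries of either pair. The ratio of *Itga6* to *Itgb1* was equal at 48 h and higher in the treated library at 72 h. With 1 library per condition, a response of these ratios to butyrate was not tested.

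**Figure D3:**
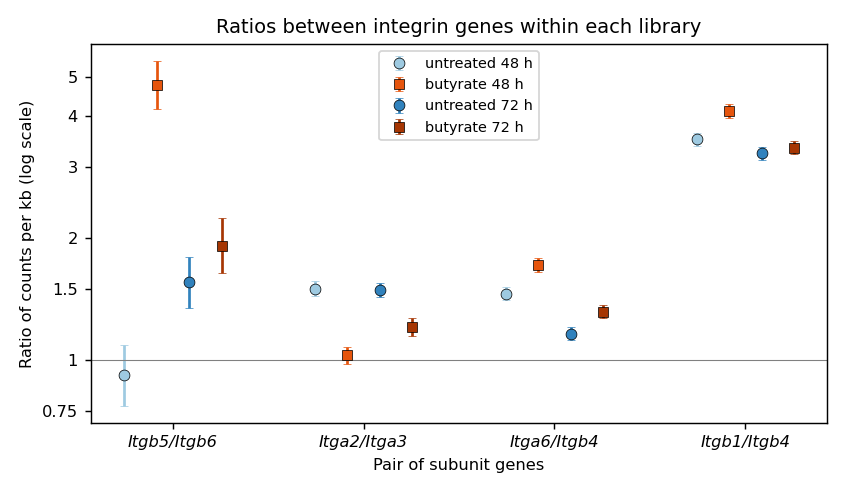
Ratios of counts per kilobase between pairs of integrin genes in each of the 4 libraries, on a log axis, with 95% intervals for counting error. *Itgb5* over *Itgb6* runs from 0.92 in untreated to 4.77 in butyrate-treated organoids at 48 h, whereas *Itga2* over *Itga3* is lower in each treated library than in either untreated one.

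The chains of the alpha v receptors included the widest contrast at 48 h, that of *Itgb5*, but at 72 h none of them passed 1.5-fold. *Itgav* itself (chr2:83724397-83806916, plus strand) had 889.6, 1067.0, 1136.5 and 1279.8 normalised counts, the highest of them in butyrate at 72 h. Butyrate over untreated, the log2 ratio came to 0.26 (0.13 to 0.39) in the 48 h pair and 0.17 (0.05 to 0.29) in the 72 h pair, neither past 1.5-fold.

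*Itgb5*, the beta chain of the vitronectin receptor alpha v beta5 (chr16:33829665-33949338, plus strand), had 199 counts in untreated and 729 in treated organoids at 48 h, and 341 and 321 at 72 h. Normalised, these were 203.5 and 661.4 at 48 h and 336.7 and 346.7 at 72 h. The treated 48 h library stood well above the other 3, and the 72 h pair was level. The log2 fold change was 1.70 (1.47 to 1.93) at 48 h, which ranked 170 of 11650 tested genes from the highest, and 0.04 (-0.18 to 0.27) at 72 h. The difference between the times was -1.65 (-1.97 to -1.34). In share of the beta-chain TPM, *Itgb5* had 1.99% and 7.9% at 48 h and 3.03% and 3.36% at 72 h.

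*Itgb6*, the epithelial chain that binds latent TGF-beta (chr2:60598292-60722643, minus strand), had 433 counts in untreated and 306 in treated organoids at 48 h, and 438 and 335 at 72 h. The normalised counts of 442.8, 277.6, 432.5 and 361.8 were lower in both treated libraries than in both untreated ones. The log2 difference, treated minus untreated, was -0.67 (-0.89 to -0.46) in the earlier pair and -0.26 (-0.47 to -0.05) in the later pair. The value at 72 h exceeded that at 48 h by 0.41 (0.12 to 0.71), as for *Itga6*, *Itgb1* and *Itgb4*. With epithelial scaling the values were -0.76 at 48 h and -0.07 at 72 h, so the gap was wider. *Itgb5* and *Itgb6*, which share alpha v as partner, thus lay on opposite sides at 48 h. Their ratio per kilobase was 0.92 (0.774 to 1.09) in untreated and 4.77 (4.17 to 5.47) in treated organoids at 48 h, and 1.56 (1.35 to 1.8) and 1.92 (1.64 to 2.24) at 72 h. The ratio of *Itgav* to *Itgb5* was 1.45, 0.533, 1.12 and 1.22, so the beta5 transcript exceeded that of its only alpha partner in butyrate at 48 h alone.

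*Itgb8* (chr12:119158022-119238802, minus strand), the other chain that binds latent TGF-beta, was lowest in butyrate at 48 h, with 7.3 normalised counts beside 20.5, 18.8 and 17.3 in the other libraries. Its log2 fold change of -1.38 (-2.89 to -0.25) at 48 h and -0.11 (-1.17 to 0.92) at 72 h rests on so few counts that it was not called.

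The promoters of the 3 genes with a call in butyrate are shown because their transcripts moved apart: *Itgb5* is printed beside *Itgb6* and *Itga2*. Each is the 250 bases that end just before the annotated start, from RefSeq on GRCm38.p6, written 5′ to 3′ on the gene's strand, with motif matches in capitals. *Itgb6* has 2 annotated starts, and the upstream one is shown.
Itgb5, chr16:33829415-33829664, plus strand: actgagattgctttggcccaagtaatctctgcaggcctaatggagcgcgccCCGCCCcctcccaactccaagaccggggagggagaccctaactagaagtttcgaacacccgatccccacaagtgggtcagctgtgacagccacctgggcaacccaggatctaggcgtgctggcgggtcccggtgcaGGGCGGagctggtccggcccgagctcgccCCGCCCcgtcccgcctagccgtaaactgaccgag
Itgb6, chr2:60722604-60722853, minus strand: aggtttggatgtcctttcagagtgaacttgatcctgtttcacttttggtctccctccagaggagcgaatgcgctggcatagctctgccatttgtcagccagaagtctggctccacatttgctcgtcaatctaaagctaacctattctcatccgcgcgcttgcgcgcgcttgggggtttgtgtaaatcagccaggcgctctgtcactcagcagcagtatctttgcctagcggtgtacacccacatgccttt
Itga2, chr13:114932101-114932350, minus strand: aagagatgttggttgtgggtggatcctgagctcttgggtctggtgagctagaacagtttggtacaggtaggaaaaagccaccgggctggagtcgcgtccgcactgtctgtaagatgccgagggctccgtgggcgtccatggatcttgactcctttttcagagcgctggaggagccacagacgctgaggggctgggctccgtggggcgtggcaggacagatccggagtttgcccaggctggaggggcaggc
Both strands were searched for the GC box GGGCGG, the CCAAT box CCAAT, the TATA box TATAAA and the AP-1 site TGANTCA, and these occur in 32.7%, 33.8%, 12.4% and 6.75% of the 32851 RefSeq promoters of this length. *Itgb5* had 3 GC boxes, beginning 199, 63 and 34 bases upstream of the start, and a GC content of 65.2%. The *Itgb6* and *Itga2* sequences held none of the 4 motifs, at a GC content of 52% and 60.8%. Of the 9 integrin genes, 7 had a promoter entry, with 9 promoters between them, and 3 of the 7 had a GC box and 2 a CCAAT box, while none had a TATA box or an AP-1 site. *Itga6* and *Itgb4* had no entry. A match of letters is a description of the sequence and not evidence of a bound site.

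The second comparison was of 72 h with 48 h in each arm. It uses the same 4 libraries as the butyrate comparison and is not independent of it. In untreated organoids *Itgb5* was called higher at 72 h, with a log2 fold change of 0.72 (0.47 to 0.99), and no tested member was called lower. The background was 3.08% of all genes higher and 3.32% lower. In butyrate-treated organoids *Itgb5* was called lower, at -0.93 (-1.13 to -0.74), and *Itgb4* higher, at 0.61 (0.54 to 0.68), against 6.63% of all genes higher and 8.45% lower. The call of *Itgb4* was lost when libraries were scaled to their total counts. The level 72 h pair of *Itgb5* therefore combined an untreated library that was higher than at 48 h with a treated library that was lower.

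None of the other tested members passed 1.5-fold between the times. *Itgb8*, which was not tested, gave 1.15 (-0.06 to 2.68) in butyrate on its few counts. In butyrate, *Itgb1* was 0.31 (0.26 to 0.35) higher at 72 h on the log2 scale, *Itgb6* 0.38 (0.15 to 0.61) and *Itga6* 0.22 (0.18 to 0.27), and in untreated organoids the same genes gave 0.08 (0.04 to 0.12), -0.03 (-0.23 to 0.16) and -0.13 (-0.18 to -0.09). With epithelial scaling these were 0.50, 0.57 and 0.41 in butyrate and -0.01, -0.13 and -0.23 untreated. *Itga2* was higher at 72 h in both arms, by 0.27 (0.22 to 0.33) untreated and 0.25 (0.19 to 0.32) treated, or by 0.18 and 0.44 with epithelial scaling. *Itgav* was also higher at 72 h in both, by 0.35 (0.23 to 0.48) and 0.26 (0.14 to 0.38), or by 0.26 and 0.45 with epithelial scaling.

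Genes with the most similar profile over the 4 libraries were sought among 10787 genes with a mean of at least 100 normalised counts, by the distance between centred log2 values. For *Itgb5* these were *Ptpn13*, a tyrosine phosphatase, *Naaladl1*, a peptidase, and *Syne1*, a nuclear envelope protein, at distances of 0.24, 0.24 and 0.25. They had a log2 fold change in butyrate of 1.38, 1.89 and 1.43 at 48 h and of 0.16, 0.17 and 0.00 at 72 h. For *Itgb8* the nearest were *Atf5*, *Pcdhgb6* and *Dpp4*, at 0.10, 0.21 and 0.21, but the profile of *Itgb8* itself rests on its few counts. With 4 libraries many genes can have a like profile, and nothing of shared function is read from it.

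The remaining genes of the integrin pathway were described by lists, with the same 1.5-fold call and no test of a list. Each count stands beside the same shares of all tested genes, 8.94% higher and 6.43% lower at 48 h and 5.88% and 5.13% at 72 h. Of 17 other integrin subunits, 5 had enough counts. Of these, 1 was called higher and 0 lower at 48 h, and 2 higher and 1 lower at 72 h. *Itga4*, among those called higher at 72 h, had 45.0, 35.4, 54.3 and 86.4 normalised counts. It reached the minimum mean only through the treated library of 72 h. The count of higher genes at 72 h is therefore not read as a change of the list. *Itga4* was named after its values were seen. *Itga5*, the alpha chain of the fibronectin receptor, was called higher at both times, with 297 counts against 128 in the untreated library of 48 h, and 280 against 195 in that of 72 h. The log2 ratios to untreated were 1.04 (0.74 to 1.35) and 0.65 (0.38 to 0.92). The 12 others that were not tested had at most 48 counts in any library.

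Among the ligands, 7 of 11 laminin chains had enough counts, and 2 were called higher and 1 lower at 48 h, with 3 higher and 1 lower at 72 h. *Lama5*, the alpha5 chain of laminin, had 3084 counts with butyrate against 776 without it at 48 h, and 3640 against 927 at 72 h. The log2 ratio to untreated was 1.82 (1.70 to 1.93) at 48 h, near that of *Itgb5*, and 2.10 (2.00 to 2.21) at 72 h, when *Itgb5* was level. *Lamb2* was also called higher at both times, at 0.69 and 1.01, whereas *Lama3*, a chain of the laminin found at hemidesmosomes, was called lower, at -0.64 and -0.80. The laminin ligands thus split by chain, while the laminin-binding *Itga3* and *Itga6* passed 1.5-fold at neither time.

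Of 8 collagen chains, 2 had enough counts, and both were called higher at 72 h and neither at 48 h. *Col4a2*, the more abundant, gave 0.20 and 0.83. Of 11 ligands read by alpha v integrins or by *Itga5*, 5 had enough counts, with 2 higher and 1 lower at 48 h and 3 higher and 0 lower at 72 h. *Mfge8*, a ligand of alpha v beta5, was called higher at both times, at 1.08 and 0.88, unlike *Itgb5*, which was called at 48 h.

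Of 13 genes of the latent TGF-beta system, on which *Itgb6* and *Itgb8* act, 7 had enough counts, with 4 higher and 1 lower at 48 h and 2 higher and 1 lower at 72 h. *Ltbp3*, with 28.6 and 26.7 normalised counts untreated and 250.4 and 126.4 treated, and *Tgfbi*, with 116.1 in butyrate at 48 h and 37.8 to 41.9 elsewhere, reached the mean of 50 only through treated libraries, so the count of higher genes is not read as support for a change of the list. *Tgfbi* was named after its values were seen. *Ltbp3* and *Ltbp4*, which bind latent TGF-beta to the matrix, were called higher at both times, at 3.08 and 2.20 for *Ltbp3* and 2.00 and 1.38 for *Ltbp4*. *Ltbp3* counts were 276 with and 28 without butyrate at 48 h, then 117 with and 27 without it at 72 h. The RNA of *Ltbp4* was thus higher in the treated libraries, in which *Itgb6* had fewer normalised counts, and a link between them was not tested.

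**Figure D4:**
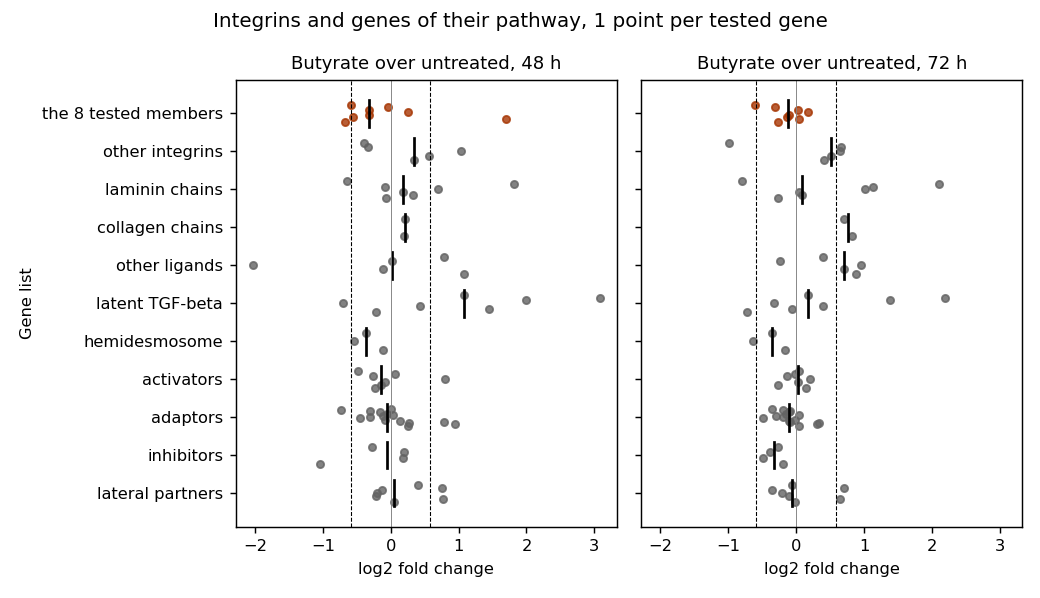
Log2 fold change of butyrate over untreated at 48 h and 72 h for the tested genes of each list of integrin pathway genes, with 1 point per gene and a black bar at the list's median. The median of the hemidesmosome list is -0.36 at 48 h and -0.35 at 72 h. That of the latent TGF-beta list, 1.08 and 0.18, includes *Ltbp3* and *Tgfbi*, which had enough counts only through treated libraries. It is not read as a change of the list.

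Among intracellular partners, the hemidesmosome list had 3 of 4 genes with enough counts, with none called at 48 h and 1 lower at 72 h. *Plec*, the linker of beta4 to keratin filaments, gave -0.36 (-0.41 to -0.31) and -0.35 (-0.40 to -0.30) with DESeq2 size factors, under which *Itgb4* gave -0.56 and -0.14. Epithelial scaling lowers values at 48 h and raises those at 72 h, so the level pair of *Plec* rests on the scaling. Of 18 adaptors, 15 had enough counts, with 2 higher (*Tns4* at 0.94 and *Tns2* at 0.78) and 1 lower (*Parva* at -0.73) at 48 h and none called at 72 h. These 3, and *Fermt3* below, were named after their values were seen. The most abundant adaptor, *Actn4*, gave 0.13 (0.09 to 0.16) and -0.10 (-0.14 to -0.07).

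Activators of integrins, 7 of 8 with enough counts, had 1 higher at 48 h, *Fermt3* at 0.80, and none called at 72 h, and *Fermt1*, the epithelial kindlin, gave -0.26 and -0.13. Among 4 inhibitors, *Flna* was the one called lower at 48 h, at -1.04, and none was called at 72 h, where *Flna* gave -0.20. Of 7 tetraspanins and other lateral partners, all with enough counts, 2 were called higher at both times: *Cd81*, at 0.76 and 0.70, and *Bsg*, at 0.77 and 0.64. Neither activators nor adaptors had a median further than 0.15 from 0 at either time.

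Markers of other cells were low, apart from 1 gene. Of 10 mesenchymal markers, 2 had enough counts, with none called at 48 h and 1 lower at 72 h, beside 5.13% of all tested genes. The 10 had summed normalised counts of 199.4, 219.6, 255.7 and 207.4, and *Col3a1* and *Lum* were at 0 in all libraries. Of 5 glial and neuronal markers none had enough counts, and *Sox10* and *S100b* were at 0. The 5 endothelial markers summed to 76.7, 127.0, 82.9 and 102.6, a ratio of 1.66 at 48 h and 1.24 at 72 h in butyrate, with *Vwf* at 43, 90, 27 and 62 counts and *Cdh5* at 0, 0, 1 and 0.

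Of the 7 immune markers, only *Cd68* had enough counts to be called, and it was higher in butyrate at both times. The 7 summed to 187.1, 1229.4, 233.0 and 524.9 normalised counts, a ratio of 6.57 at 48 h and 2.25 at 72 h in butyrate. Most of the difference was in *Cd68*, a lysosomal protein of macrophages that other cells also make, with 128, 1309, 172 and 420 counts. Without *Cd68* the sum was 56.2, 41.7, 63.2 and 71.3, and *Adgre1* was at 0 in all 4 libraries. *Ptprc*, present on leukocytes, had 5, 6, 15 and 6 counts, and *Csf1r*, a macrophage receptor, had 1, 2, 0 and 16, so its highest library was butyrate at 72 h.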

How the data were processed

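RNA of mouse colonic organoids was measured in 4 libraries, 1 per condition. The authors deposited 1 table of counts per gene name, made by quantifying poly-A reads with kallisto 0.44.0 on GRCm38.p6, per the submitters' processing notes, and summing the estimates of transcripts to genes. The values in it are whole numbers, so the estimates had been rounded. Estimates of this kind share reads between similar transcripts, and splice forms were not separated. No strand setting is given in the sources used here.

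From these deposited counts, size factors were computed with DESeq2 1.42.0 in R 4.3.3 over the 13977 genes that exceeded 10 counts in 2 or more of the libraries. A log2 fold change is the ratio of normalised counts with a pseudocount of 1. A gene with a mean of at least 50 normalised counts was tested against a 1.5-fold threshold, which is a rule of size and not a test across replicates. That mean was reached by 11650 genes, 8 of the 9 integrin genes among them. TPM was computed from union exon lengths of the annotation of the files' build, which named 35907 of the 36144 genes. The table held 26 names that a spreadsheet had turned into dates and 2 names listed more than once, which were left out. Overlapping genes of *Itga6* and *Itgav* that are in the table had 0 counts. Intervals were computed in Python 3.11.15 with scipy 1.17.1, and the scripts were tested on simulated data.

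The integrin genes and the pathway lists were chosen with earlier results of these data known. The genes named in the text are the 9 integrins, the genes of each list called in 1 direction at both times or otherwise the most abundant gene of the list, the nearest profiles of the 2 genes with the widest range, and markers of other cell types. The naming of *Ccn1* followed a look at its values. The alternatives tried were TMM factors of edgeR 4.0.16, the total count, the total without mitochondrial genes, the summed epithelial markers, a pseudocount of 5, a 2-fold threshold, the filter above alone, and the length of the longest transcript.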

Additional observations from a re-analysis of the deposited data

Results flagged for a closer look

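With DESeq2 size factors no integrin gene lay on opposite sides of 0 at the 2 times with both intervals clear of 0. With epithelial scaling *Itga6* gave -0.41 and 0.23 and *Itgb1* -0.41 and 0.10, and with total counts *Itga6* was 0.09 at 72 h. With the size factors, 2 pathway genes that the text names did. *Ccn1*, a secreted ligand of alpha v integrins, was lower in butyrate at 48 h, by a log2 value of -2.03 (-2.37 to -1.72), and higher at 72 h, by 0.95 (0.76 to 1.14), since untreated organoids gave 369 and 359 counts and treated ones 101 and 633. The untreated libraries were level and the treated ones lay on either side of them. *Actn4*, an actin crosslinker at adhesions, gave log2 values of 0.13 in the earlier pair and -0.10 in the later pair, neither past 1.5-fold. The difference between the times was not tested across replicates, since each condition had 1 library.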

How the results depend on the processing

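No paired analysis was possible because the groups compared share only 1 replicate number, and leaving out a library would remove its comparison. The 48 h and 72 h pairs were described separately and not used as replicates of treatment. Of 180 log2 fold changes of single integrin genes under the alternatives, 149 stayed within their interval, 26 moved beyond it and 5 changed sign. At 72 h in butyrate, scaling to the summed epithelial markers gave *Itgb1* 0.10, *Itgb4* 0.05 and *Itgb8* 0.07, and the median of the integrin genes 0.07, and total-count scaling gave a median of -0.07. Under epithelial scaling the 48 h median was -0.41 and *Itgb1* over time in untreated organoids was -0.01; with total counts, *Itga3* over time in butyrate was -0.02. Called integrin genes fell at 48 h to 1 at 2-fold, at 72 h to 0 with total counts, epithelial scaling or 2-fold, over time in untreated organoids to 0 at 2-fold, and over time in butyrate to 1 with total counts and 0 at 2-fold. Epithelial scaling moved the median of all genes to -0.12 at 48 h, 0.19 at 72 h, and -0.10 and 0.18 over time in untreated and treated organoids. Calls of all genes then split as 871 higher and 1064 lower at 48 h (1042 and 749 as reported), 1255 and 338 at 72 h (685 and 598), 258 and 540 over time untreated (359 and 387) and 1597 and 546 over time treated (772 and 984); total-count scaling gave 266 and 505 over time untreated. The filter alone, over 13977 genes, gave 1837 and 1244 at 48 h, 1328 and 1192 at 72 h, 953 and 723 over time untreated and 1351 and 1663 over time treated. A 2-fold threshold gave 458 and 180, 271 and 187, 88 and 98, and 193 and 292. The causes of these changes were not tested. Counts of *Itgb8* and *Itgb5* limit the precision of their folds, and the spread between cultures was not measured.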

Other observations

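The summed TPM of the 9 integrin genes was 553 in untreated and 451 in butyrate-treated organoids at 48 h, and 547 and 527 at 72 h. The alpha chains contributed 241 and 195 at 48 h and 239 and 217 at 72 h, and the beta chains 312 and 256, and 308 and 310. Within the alpha pool, *Itga2* had 33.6% and 27.7% at 48 h and 37.2% and 29.1% at 72 h, and *Itgav* 3.73% and 5.54% at 48 h and 4.36% and 5.86% at 72 h. Both shares lay apart by arm, *Itga2* lower and *Itgav* higher in the treated libraries at each time.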
